A study of Mus musculus with 3 samples.

Results

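Klrg1+ Foxp3+ regulatory T cells were described in the thymus of mice that had received haploidentical bone marrow transplantation (BMT). A cell was a member when it held at least 1 unique molecular identifier (UMI, standing for 1 captured transcript) of Foxp3, at least 1 of Klrg1, and at least 1 of the 5 activation receptor genes Il2ra, Ctla4, Tnfrsf9, Tnfrsf4 and Tigit. Of 16172 cells in the 3 libraries of the series, 11559 came from the 2 BMT libraries, and 11527 of these were kept, having more than 200 but fewer than 6000 genes and less than 10% of their UMIs on mitochondrial genes. The members were thus chosen by the measured UMIs of these 7 genes. By this rule 467 of the 11527 cells were members, 190 from mice with BM only and 277 from mice with BM + Spl.

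All BMT hosts were F1 mice of the cross C57BL/6 x BALB/c, given T cell-depleted bone marrow of C57BL/6 donors after lethal irradiation. Hosts of the BM only group, labelled as without GVHD, received marrow alone, and hosts of the BM + Spl group, labelled as with GVHD, also received C57BL/6 splenic cells. Both groups carried the labels of 16 weeks of age and 9 weeks after BMT, while the C57BL/6 mice without BMT were labelled as 7 weeks old. After removal of CD8+ thymocytes, the sort kept cells that were positive for TCRβ and CD1d-tet and negative for CD24 and NK1.1, a gate meant for precursors of invariant natural killer T (iNKT) cells. Each condition was a single droplet library without replicates, so nothing could be tested between libraries, and the 95% intervals reflect the error of counting alone. Whether a transcript came from donor or host cells was not analysed here.

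Regulatory T cells hold back immune responses and depend on the transcription factor Foxp3 and on interleukin 2. Many of them arise in the thymus, and activated cells can also return there from the periphery. Klrg1, an inhibitory lectin-like receptor for cadherins, marks antigen-experienced cells, and in regulatory T cells of barrier tissues it is often found together with the interleukin 33 receptor chain ST2 (Il1rl1), the transcription factor Gata3 and the repair factor amphiregulin (Areg).

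The BM only library held 35041153 UMIs in 5986 cells (median 4734 per cell), the BM + Spl library 43383960 UMIs in 5573 cells (median 6485) and the C57BL/6 library 60600408 UMIs in 4613 cells (median 11885). Members held 1066222 UMIs in BM only and 2053480 in BM + Spl, with medians of 4212 and 5273 per cell. The median mitochondrial share of members was 0.539% in BM only and 0.392% in BM + Spl. The 2 BMT libraries shared 43 cell barcodes, and no member had a barcode found in both. Levels are given as CPM, the UMIs of a gene summed over a set of cells per 1000000 UMIs of that set, and log2 ratios compare such sums. With summed libraries, fewer expressing cells and less RNA per cell cannot be told apart, and counts of cells with a UMI are therefore printed beside several levels.

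Some members also carried UMIs of other cell types, and this was unequal between the libraries. At least 3 UMIs over 13 genes of plasmacytoid dendritic cells, B cells and macrophages were found in 3 of 190 members in BM only (1.58%, Clopper-Pearson interval 0.327 to 4.54%) and in 21 of 277 in BM + Spl (7.58%, 4.75 to 11.4%). Of the 21, 18 held Siglech, the lectin that defines plasmacytoid dendritic cells, and their median was 15610 UMIs against 5042 in the other members. A set of cells with at least 5 Siglech UMIs and no UMI of the T cell receptor complex gene Cd3e is called plasmacytoid-marked cells below. It made up 2.04% of kept cells in BM only and 5.22% in BM + Spl. For most genes compared between the libraries, the ratio is therefore also given over the 187 and 256 members that had fewer than 3 such UMIs, called members without mixed cells below. Doublets were not removed otherwise.

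Members were rare in both BMT libraries and none was found without BMT. They made up 3.18% of kept cells in BM only (2.75 to 3.66%) and 4.98% in BM + Spl (4.43 to 5.59%), a ratio of 1.57-fold (1.31 to 1.88). Foxp3+ cells with a receptor but without Klrg1, called Klrg1-negative Foxp3+ cells below, made up 7.42% and 8.17% of kept cells, a log2 ratio of 0.14 (-0.04 to 0.32). Among all Foxp3+ cells with a receptor, the Klrg1+ share was 30.0% in BM only and 37.9% in BM + Spl.

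Depth differed between the libraries, so the rule was also applied after each cell was thinned to 2000 UMIs, which left out 541 shallower cells in BM only and 256 in BM + Spl. The thinned shares of members were 1.86% and 2.83%, a ratio of 1.52-fold. The thinned Klrg1+ shares of Foxp3+ cells were 26.4% and 31.9%, and the interval of their log2 ratio (-0.03 to 0.58) included 0. In the C57BL/6 library 3 of 4434 kept cells held Foxp3 and 9 held Klrg1, while 0 met the rule. A count of 0 allows up to 0.0677% of cells with UMIs that meet the rule, and it does not limit the share of cells that express these genes. That library came from younger mice of another strain and another version of the counting software, and the labels name both 3′ and 5′ library kits without saying which library used which, so BMT, age, strain, software and kit cannot be told apart in this contrast.

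Free RNA in the droplets was checked in cells without a Cd3e UMI that should lack both genes. Foxp3 was seen in 1 of 74 B cells in BM only and 0 of 47 in BM + Spl, and Klrg1 in 1 of 74 and 0 of 47, at median depths of 6300 and 7955 UMIs. Of the plasmacytoid-marked cells named above, 1 of 122 and 3 of 290 held Foxp3, and 0 of 122 and 1 of 290 held Klrg1. None of them met the rule. This last count is no check, because the set was chosen without Cd3e, which nearly all members held. In BM + Spl 20 members held 338 Siglech UMIs together. The shares of members by library, at full depth and thinned, are drawn beside those of Klrg1-negative Foxp3+ cells.

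**Figure D1:**
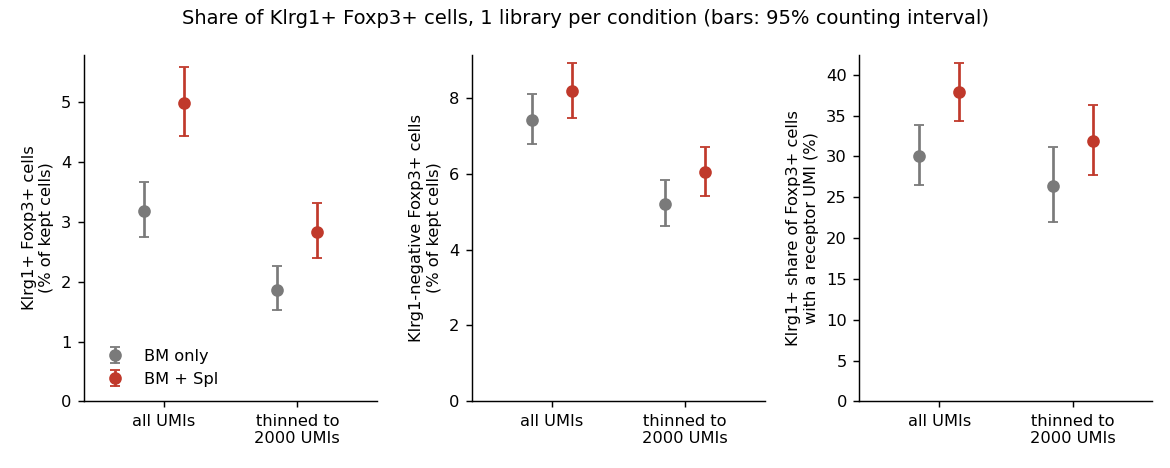
Percent of cells (y axis, from 0) that were members of kept cells, Klrg1-negative Foxp3+ cells of kept cells, and Klrg1+ among Foxp3+ cells with a receptor, in BM only and BM + Spl, at full depth and at 2000 UMIs per cell, with 95% Clopper-Pearson intervals. Members were at 3.18% and 4.98% at full depth, while Klrg1-negative Foxp3+ cells were at 7.42% and 8.17%.

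The rule fixed the levels of its own 7 genes, which are given only as a description. The median member held 3 Foxp3 UMIs in each library, with a maximum of 14 in BM only and 21 in BM + Spl. The median number of Klrg1 UMIs was 2 in BM only and 4 in BM + Spl. Tnfrsf4 (OX40) was detected in 178 of 190 members in BM only and 269 of 277 in BM + Spl, Ctla4 in 166 and 252, Tigit in 136 and 252, Tnfrsf9 (4-1BB) in 145 and 233, and Il2ra, the high-affinity chain of the interleukin 2 receptor, in 129 and 218. Just inside the threshold, 17 members in BM only and 10 in BM + Spl held a single UMI of both Foxp3 and Klrg1. Just outside it, 1 cell in BM only and 0 in BM + Spl held both genes without a receptor, and 32 and 68 held Klrg1 and a receptor without Foxp3. Another cell in each library met the gene rule but failed the filter on cells.

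The label of the cells was checked on genes the rule did not use. Cd3e, a chain of the T cell receptor complex, was detected in 187 of 190 members in BM only and in 275 of 277 in BM + Spl. Cd4 was detected in 46.8% and 57.4% of members, against 25.8% and 51.9% of other T cells. After thinning these shares were 26.8% and 29.0% of members, and in BM + Spl 24.1% of other T cells. Cd8a was detected in 1.58% and 6.50% of members. Other T cells here are the 5211 and 4715 kept cells with Cd3e that were not members, including most Klrg1-negative Foxp3+ cells.

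Regulatory T cell genes outside the rule were high in members of both libraries. Ikzf2 (Helios), a transcription factor of thymus-derived regulatory T cells, stood at 664 CPM in members and 124 CPM in other T cells in BM only, and at 518 and 132 CPM in BM + Spl. Tnfrsf18 (GITR), a costimulatory receptor, stood at 871 and 177 CPM in BM only and at 904 and 214 CPM in BM + Spl. Tff1, a small secreted peptide of mucosal surfaces, stood at 1024 and 96.4 CPM in BM only (log2 ratio 3.41) and at 314 CPM in members of BM + Spl (2.39 against other T cells). In each of these genes the member level was more than 2-fold above that of other T cells in both libraries.

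Of the 13 genes of this list, 9 of the 11 that could be compared in BM only and 10 of 12 in BM + Spl were past 2-fold higher in members. Across all genes with at least 50 UMIs observed or expected in members, 8.94% of 3703 genes in BM only and 8.19% of 5738 in BM + Spl were past 2-fold higher, and 3.89% and 3.36% were past 2-fold lower. The median log2 ratio of the list was 1.92 in BM only and 2.11 in BM + Spl, and that of all compared genes 0.12 and 0.05. A gene could pass the minimum through its UMIs in members alone, so these counts describe the genes that passed. The rule itself chose cells that differ from other T cells, and the comparison is a description. Gpr83 did not pass the minimum in either library, and Lrrc32 (GARP), which holds latent TGF-β on the cell surface, passed it only in BM + Spl. Lrrc32 stood at 23.4 CPM in members of BM only and 45.3 CPM in BM + Spl. Between the libraries it was past 2-fold higher in members of BM + Spl only without mixed cells, and it was also past 2-fold higher in other T cells. Izumo1r (folate receptor 4) did not reach 2-fold, at 296 and 249 CPM in BM only and 327 and 363 CPM in BM + Spl.

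The gate selected cells that bound the CD1d tetramer, and Zbtb16, Trav11 and Traj18 were found in few or no members. Zbtb16, which encodes PLZF, the transcription factor that directs iNKT cells, was detected in 6 of 190 members in BM only and in 7 of 277 in BM + Spl, against 32.7% and 41.3% of other T cells. After thinning Zbtb16 was found in 0.546% and 1.47% of members and in 17.3% and 21.4% of other T cells. Trav11, the V segment of the invariant iNKT alpha chain, was detected in no member, which allows up to 1.58% and 1.08% of members with a UMI. It was detected in only 1.17% and 0.530% of other T cells, so at this depth the absence of Trav11 UMIs does not set members apart. Its partner Traj18 was detected in 1 member of BM only and none of BM + Spl, but V and J segments were rarely captured, with Traj18 in only 3.26% and 3.39% of other T cells. The 8 iNKT genes summed to 101 CPM in members and 326 CPM in other T cells in BM only, and to 159 and 444 CPM in BM + Spl. Slamf6, a receptor that many other T cells also carry, led that sum in members, at 82.5 CPM in members and 83.0 CPM in other T cells in BM only and at 102 and 127 CPM in BM + Spl.

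V beta segments, were not used by the rule and were counted per cell. A segment was assigned when it held at least 80% of the V beta UMIs of a cell, which was possible for 139 members in BM only and 189 in BM + Spl. The 6 segments counted as those of iNKT cells (Trbv1, Trbv12-2, Trbv13-1, Trbv13-2, Trbv13-3 and Trbv29) made up 30.2% of assigned members in BM only (22.7 to 38.6%) and 23.8% in BM + Spl (17.9 to 30.5%). In Klrg1-negative Foxp3+ cells they made up 24.9% and 25.8%, and in other T cells 77.4% and 55.8%. Reads of near-identical segments, such as those of the Trbv13 group, may have been split in counting, so single segments are uncertain.

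No single segment held most members. Among members, 19 segments were seen in BM only and 22 in BM + Spl, and the most frequent in each was Trbv5, with 13.7% and 12.7% of assigned members. The 3 most frequent segments together held 35.3% and 32.3%, against 56.5% and 38.2% in other T cells. Trbv29 was assigned to 1 of 139 members and 650 of 3604 other T cells in BM only, and to 2 of 189 and 477 of 3368 in BM + Spl. How cells with few Zbtb16, Trav11 and Traj18 transcripts entered the tetramer gate was not tested.

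**Figure D2:**
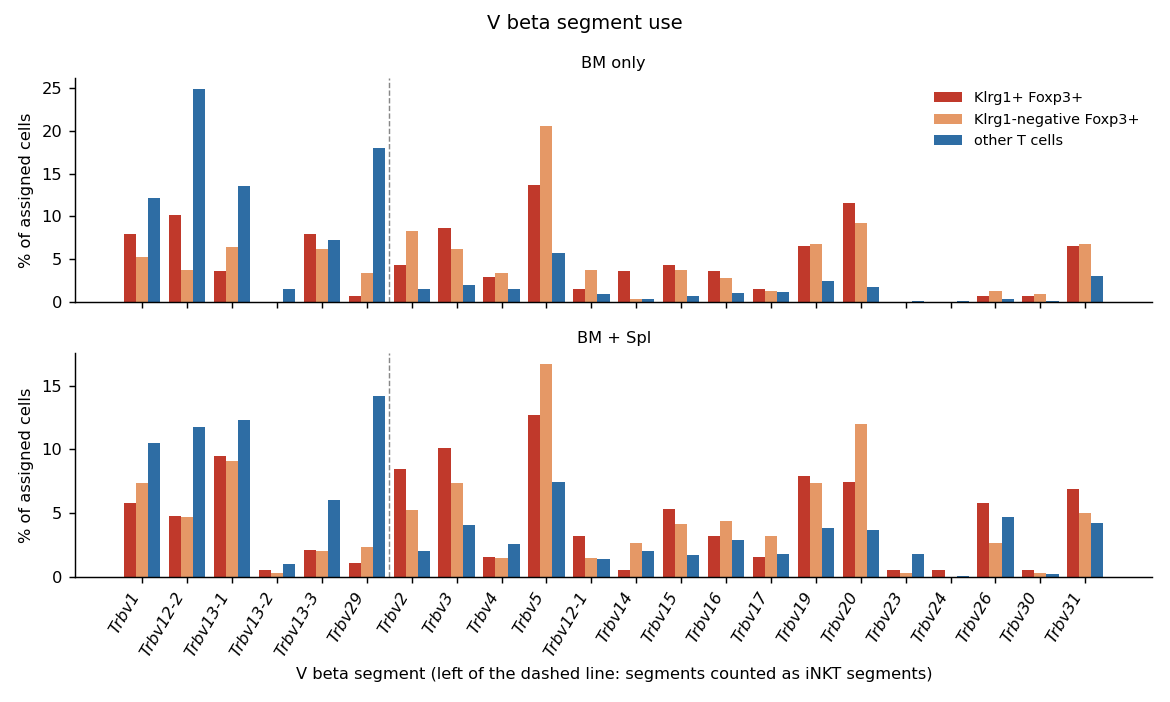
Percent of cells with an assigned V beta segment (y axis) that used each segment (x axis), for members, Klrg1-negative Foxp3+ cells and other T cells of both libraries, with the segments counted as iNKT segments marked. Members were spread over 19 and 22 segments, and iNKT segments together made up 30.2% and 23.8% of them, against 77.4% and 55.8% of other T cells.

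Il1rl1, Areg and Sdc4 were among the genes that set members apart from other T cells most strongly. Il1rl1 (ST2), the receptor of the alarmin interleukin 33, stood at 91.9 CPM in members and 4.14 CPM in other T cells in BM only (log2 ratio 4.47), and at 66.7 and 4.61 CPM in BM + Spl (3.86). Areg, a growth factor of the epidermal growth factor family with a role in tissue repair, stood at 93.8 and 5.68 CPM in BM only (4.05) and at 109 and 11.0 CPM in BM + Spl (3.31). Sdc4 (syndecan 4), a heparan sulphate proteoglycan, stood at 220 and 21.2 CPM in BM only (3.38) and at 195 and 23.0 CPM in BM + Spl (3.08). The 10 leading genes also included Frmd5, Neb, Rln3, Laptm4b, Cxcl2, Mt1 and Gpr25, each with a log2 ratio above 3 in both libraries. Their lowest member level was 25.3 CPM, for Gpr25 in BM + Spl.

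Of the genes compared in both libraries, 236 were past 2-fold higher in members in both, 76 were past 2-fold lower in both, and 3 (Fcer1g, Trbv4 and Ccl1) were past 2-fold in opposite directions. Without mixed cells the opposite genes were 2, Trbv4 and Ccl1. Lower genes were led by Zbtb16, at 8.44 CPM in members and 153 CPM in other T cells in BM only (log2 ratio -4.18) and at 10.7 and 184 CPM in BM + Spl (-4.10). Igfbp4, which binds insulin-like growth factors, stood at 31.9 and 264 CPM in BM only (-3.05) and at 14.6 and 367 CPM in BM + Spl (-4.65). Chn2, a GTPase activating protein for Rac, stood at 22.5 and 258 CPM in BM only and at 19.0 and 255 CPM in BM + Spl. Nrgn was also among the 10, but 97.4% of its BM only UMIs in members came from 1 cell.

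Genes of tissue effector regulatory T cells were the second list to stand higher. Of its 21 genes, 14 of 19 compared were past 2-fold higher in BM only and 13 of 19 in BM + Spl, with median log2 ratios of 1.58 and 1.37. Prdm1 (Blimp-1), a transcription factor of effector cells, stood at 83.5 and 9.50 CPM in BM only and at 53.6 and 6.01 CPM in BM + Spl. Itgae (CD103), the integrin that binds epithelial E-cadherin, stood at 575 and 192 CPM in BM only and at 442 and 69.7 CPM in BM + Spl. Cxcr6, a receptor that iNKT cells also express, was past 2-fold lower in BM only, at 203 and 420 CPM, and stood at 170 and 250 CPM in BM + Spl. Pparg and Dgat2 held too few UMIs to compare in either library.

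Resting T cell genes stood lower in members as a group. Of 14 genes, 6 of 11 compared in BM only and 7 of 12 in BM + Spl were past 2-fold lower. Lef1, a transcription factor of naive and immature T cells, stood at 75.0 and 276 CPM in BM only and at 70.6 and 374 CPM in BM + Spl. Id3, an inhibitor of E proteins, stood at 39.4 and 242 CPM in BM only and at 49.7 and 325 CPM in BM + Spl.

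Signalling genes were described by pathway. In the NF-kB and TNF receptor list, 8 of 12 genes were past 2-fold higher in members in each library, among them Nfkbia, the inhibitor that NF-kB itself induces, at 2055 and 862 CPM in BM only and 1799 and 783 CPM in BM + Spl. In the interleukin 2 receptor and STAT5 list, 3 of 11 were past 2-fold higher and 1 lower in each library. Cish, a feedback inhibitor induced by STAT5, stood at 261 and 48.3 CPM in BM only and at 283 and 64.1 CPM in BM + Spl, while the survival gene Bcl2 was the lower one. In the T cell receptor response list, 3 of 6 genes (Nr4a1, Nr4a3 and Cd5) were past 2-fold higher and Myc lower in BM only, and 0 of 7 passed in either direction in BM + Spl. Without mixed cells Nr4a1 was past 2-fold higher in BM + Spl too (1.06, against 0.95 with all members).

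Chemokine receptors and adhesion genes were mixed. Of 20 genes, 8 of 17 compared in BM only and 9 of 17 in BM + Spl were past 2-fold higher and 2 lower in each. Ccr6, the receptor of Ccl20, stood at 218 and 37.1 CPM in BM only and at 85.2 and 26.2 CPM in BM + Spl. Ccr8, a receptor of tissue regulatory T cells, stood at 210 and 71.2 CPM in BM only and at 237 and 83.9 CPM in BM + Spl. Ccr6 was also the only gene of the type 17 list with enough UMIs to compare, and its other 6 genes held too few UMIs in members.

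Klrg1 is itself an NK-type receptor, but other receptors of that kind stood lower in members. Of 11 genes, 7 of 7 compared in BM only and 3 of 4 in BM + Spl were past 2-fold lower. Klrd1 (CD94) stood at 34.7 CPM in members and 238 CPM in other T cells in BM only, and at 49.7 and 87.4 CPM in BM + Spl. The Klra genes on the list are near-identical copies, and their split is uncertain. Genes of the type 1 programme were past 2-fold lower in 4 of 9 in BM only (Tbx21, Ifng, Nkg7 and Gzma) and past 2-fold higher in 1 of 6 in BM + Spl (Ccl5). Cell cycle genes passed 2-fold in neither direction against other T cells, with 0 of 7 and 0 of 11.

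Suppression effectors were past 2-fold higher in 3 of 11 genes in BM only (Ebi3, Entpd1 and Havcr2) and in 8 of 12 in BM + Spl. Entpd1 (CD39), which degrades extracellular ATP, stood at 59.1 CPM in members of BM only and 65.3 CPM in BM + Spl. Of the 8 iNKT genes, 2 of 3 compared in BM only (Zbtb16 and Il4) and 3 of 4 in BM + Spl were past 2-fold lower. Interferon response genes were past 2-fold higher in 1 of 6 in BM only (Ifi27l2a), and 1 was higher (Bst2) and 1 lower (Oasl2) of 8 in BM + Spl. Without mixed cells, Il4 (-0.83) and Bst2 (0.46) were below 2-fold in BM + Spl. Dissociation genes were past 2-fold higher in 0 of 10 and in 1 of 9 (Jun). The plasmacytoid markers were past 2-fold higher in 1 of 2 in BM only (Irf8) and in 5 of 5 in BM + Spl, but without mixed cells only Irf8 was so in either library. Without mixed cells, 9.27% of all compared genes in BM only and 8.84% in BM + Spl were past 2-fold higher than in other T cells, and 3.90% and 3.48% were past 2-fold lower.

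**Figure D3:**
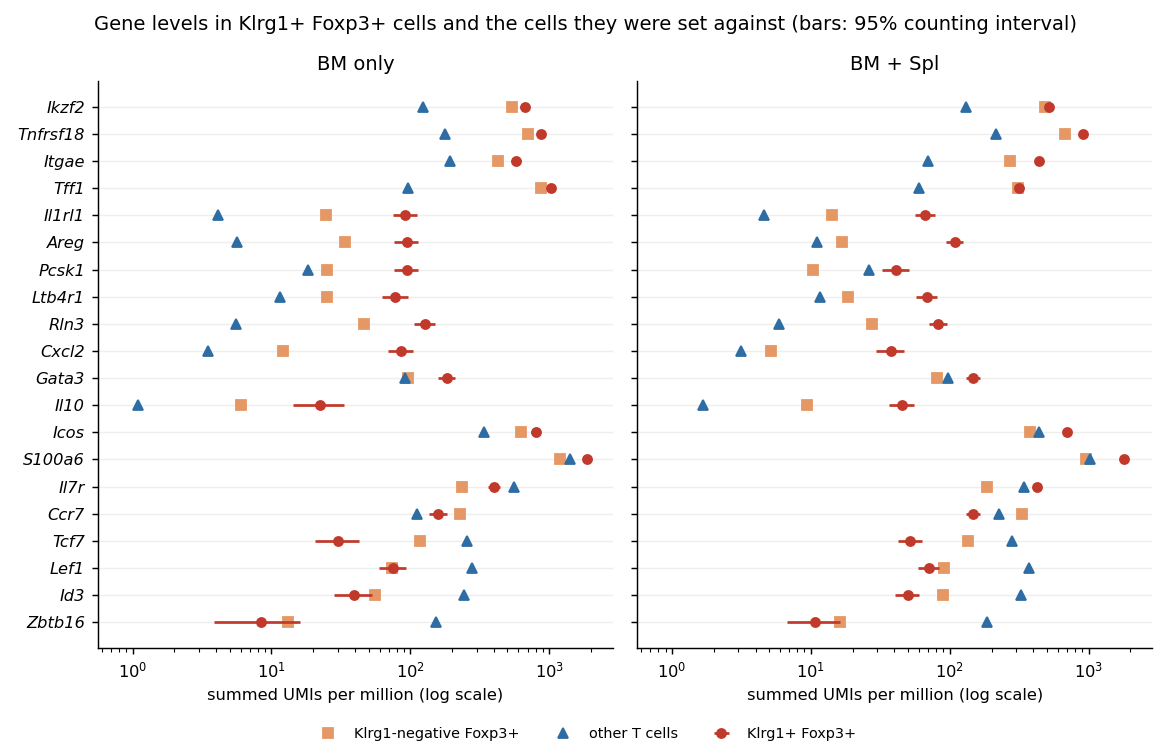
Level in CPM (x axis, log scale) of 20 genes (y axis) in members, Klrg1-negative Foxp3+ cells and other T cells of BM only and BM + Spl. Ikzf2, Tnfrsf18 and Tff1 were high in both kinds of Foxp3+ cells, Il1rl1 and Areg were highest in members, and Zbtb16 was at 8.44 and 10.7 CPM in members against 153 and 184 CPM in other T cells.

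The closest population for comparison was the Klrg1-negative Foxp3+ cells, 443 in BM only and 454 in BM + Spl. Few genes separated them from members: 33 were past 2-fold higher in BM only (0.913% of 3614 compared) and 114 in BM + Spl (2.01% of 5673), and 24 (0.664%) and 78 (1.37%) were past 2-fold lower. In both libraries together 21 were higher in each and 5 lower in each, while 0 went in opposite directions. Without mixed cells, 0.905% and 2.05% were past 2-fold higher and 0.650% and 1.93% lower. Klrg1, which the rule fixed, is 1 of the higher genes counted. Klrg1-negative means that no Klrg1 UMI was captured, and cells that express Klrg1 can be among them. A single Klrg1 UMI was held by 70 members in BM only and 58 in BM + Spl. After thinning, 72.8% of members in BM + Spl still held Klrg1. The part of such missed cells in these small differences was not tested.

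Il1rl1 and Areg, which are known together with Klrg1 in tissue regulatory T cells, were past 2-fold higher in members in both libraries. Il1rl1 stood at 91.9 CPM in members and 24.9 CPM in Klrg1-negative Foxp3+ cells in BM only (log2 ratio 1.89, 1.43 to 2.35) and at 66.7 and 14.3 CPM in BM + Spl (2.22, 1.78 to 2.68). Areg stood at 93.8 and 34.1 CPM in BM only (1.46, 1.04 to 1.88) and at 109 and 16.9 CPM in BM + Spl (2.69, 2.30 to 3.09). The intervals of both genes lay above 0 in both libraries. Gata3, the transcription factor that ST2+ cells depend on, was below 2-fold, at 184 and 96.9 CPM in BM only (0.92) and 146 and 81.1 CPM in BM + Spl (0.85).

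Other genes that led this comparison encode chemokines, a peptide hormone, a convertase and a lipid receptor. Ltb4r1, a receptor of leukotriene B4, stood at 77.8 and 25.2 CPM in BM only and at 68.2 and 18.5 CPM in BM + Spl. Pcsk1, a convertase that cuts prohormones, stood at 93.8 and 25.2 CPM in BM only and at 40.9 and 10.3 CPM in BM + Spl. Rln3, a relaxin peptide best known from the brain, stood at 128 and 46.5 CPM in BM only and at 82.3 and 27.4 CPM in BM + Spl. Its UMIs came from only 26 members in BM only and 38 in BM + Spl.

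Cxcl2, a neutrophil chemokine, stood at 85.3 and 12.1 CPM in BM only and at 37.5 and 5.16 CPM in BM + Spl, from 15 and 17 members. Zfp36, which destabilises cytokine messages, stood at 1875 and 914 CPM in BM only (1.04) and at 1211 and 419 CPM in BM + Spl (1.53). Ccl4, another chemokine, stood at 89.1 and 25.6 CPM in BM only, where 47.4% of the member UMIs came from 1 cell, and at 166 and 68.2 CPM in BM + Spl. Zfp36 and Cxcl2 can be induced when tissue is dissociated. The 10 genes of the dissociation list summed to 8102 CPM in members and 5422 CPM in Klrg1-negative Foxp3+ cells in BM only, and to 5709 and 3624 CPM in BM + Spl. Of these 10, led by Jund, 1 of 10 (Atf3) was past 2-fold higher in BM only and 2 of 8 (Dusp1 and Atf3) in BM + Spl, and their part in the levels of Zfp36 and Cxcl2 was not tested. In the T cell receptor response list, 3 of 6 genes (Nr4a1, Nr4a3 and Egr1) were past 2-fold higher in BM only and 1 of 7 (Egr1) in BM + Spl.

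Promoter sequence is shown for 4 of the 10 genes that led this comparison, because each held a motif for a class of factor that acts in activated T cells. Of the 10 genes, 9 had an entry in the table of RefSeq promoters (build GRCm38.p6), and the 250 bases before each start were searched on both strands for 4 motifs. The sequences run 5′ to 3′ on the + strand, with the motif in capitals. The windows are chr5:91139349-91139598 for Areg, chr13:75089607-75089856 for Pcsk1, chr5:90903649-90903898 for Cxcl2 and chr1:40429320-40429569 for Il1rl1. A second Il1rl1 start, with its window at chr1:40439379-40439628, held the same motif on the opposite strand 103 bases before the start and is not printed.
Areg: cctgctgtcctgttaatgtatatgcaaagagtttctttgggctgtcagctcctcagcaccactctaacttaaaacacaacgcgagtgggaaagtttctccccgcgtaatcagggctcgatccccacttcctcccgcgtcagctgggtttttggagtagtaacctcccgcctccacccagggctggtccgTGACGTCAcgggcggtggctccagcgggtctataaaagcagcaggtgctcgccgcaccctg
Pcsk1: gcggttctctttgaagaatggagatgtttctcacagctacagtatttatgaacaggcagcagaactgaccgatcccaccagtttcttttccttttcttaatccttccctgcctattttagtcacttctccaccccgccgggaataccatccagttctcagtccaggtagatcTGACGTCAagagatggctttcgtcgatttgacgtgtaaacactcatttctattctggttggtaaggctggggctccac
Cxcl2: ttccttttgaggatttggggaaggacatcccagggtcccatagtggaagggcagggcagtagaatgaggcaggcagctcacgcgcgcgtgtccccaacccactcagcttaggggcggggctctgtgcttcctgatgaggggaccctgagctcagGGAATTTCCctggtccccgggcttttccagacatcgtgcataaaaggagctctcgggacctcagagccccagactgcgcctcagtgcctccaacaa
Il1rl1: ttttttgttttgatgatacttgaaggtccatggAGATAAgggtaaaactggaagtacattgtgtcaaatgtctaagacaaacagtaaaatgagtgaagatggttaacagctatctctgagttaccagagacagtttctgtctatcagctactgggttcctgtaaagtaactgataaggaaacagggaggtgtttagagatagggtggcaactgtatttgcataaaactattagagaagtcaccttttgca

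The capitals in Areg and Pcsk1 are TGACGTCA, the cyclic AMP response element, which reads the same on both strands and begins 61 and 78 bases before the start. It was found in 508 of 32851 promoter windows of the same length (1.55%). Those in Cxcl2 are GGAATTTCC, an NF-kB motif that begins 96 bases before the start and was found in 94 windows (0.286%). Those in Il1rl1 are AGATAA, which Gata3 and its relatives recognise, beginning 217 bases before the start. This motif was found in 9.99% of windows, and Rln3 held it too. The AP-1 motif TGACTCA, found in 4.46% of windows, was in none of the 9. None of the 4 motifs is contained in another, and they were chosen after the sequences had been read. A match describes the letters and says nothing about binding.

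The 10 genes named as lower in members than in Klrg1-negative Foxp3+ cells included Tcf7, Actn1, Srm and Rrm2. Tcf7 (TCF-1), a transcription factor that naive and stem-like T cells keep, stood at 30.0 and 118 CPM in BM only (log2 ratio -1.98) and at 52.1 and 136 CPM in BM + Spl (-1.38). Actn1 (alpha-actinin 1) stood at 13.1 and 52.2 CPM in BM only (-1.99) and at 16.1 and 49.7 CPM in BM + Spl (-1.63). Srm, an enzyme of polyamine synthesis, stood at 53.5 and 115 CPM in BM only and at 78.4 and 202 CPM in BM + Spl. Tcf7 was the only gene of the resting list past 2-fold lower in both libraries, with 1 lower and 0 higher of 9 compared in BM only. In BM + Spl Ccr7 and Bach2 were also past 2-fold lower and Il7r past 2-fold higher, of 11 compared. The median log2 ratio of the resting list was 0.54 in BM only and -0.37 in BM + Spl.

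Replication genes Rrm2, Pclaf and Hist1h1b were among the 10 lower genes. Rrm2, a subunit of ribonucleotide reductase, stood at 31.9 and 76.4 CPM in BM only and at 47.7 and 93.3 CPM in BM + Spl. Of the 12 genes on the cell cycle list, 2 of 10 in BM only (Top2a and Birc5) and 1 of 11 in BM + Spl (Cdk1) were past 2-fold lower, with median log2 ratios of -0.52 and -0.50 against 0.03 and 0.05 over all compared genes. After thinning, 1.64% of members in BM only (0.339 to 4.72%) and 3.68% in BM + Spl (1.78 to 6.66%) held at least 3 UMIs of 5 cycling genes, against 4.91% (3.03 to 7.49%) and 5.66% (3.69 to 8.24%) of Klrg1-negative Foxp3+ cells. The intervals of members and Klrg1-negative Foxp3+ cells overlapped in both libraries.

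None of the 11 and 12 core regulatory T cell genes compared outside the rule was past 2-fold between the 2 kinds of Foxp3+ cells. Over all compared genes 0.913% were past 2-fold higher and 0.664% lower in BM only, and 2.01% and 1.37% in BM + Spl. The absence of such genes from a list this short therefore does not set the list apart. Ikzf2 stood at 664 and 540 CPM in BM only and at 518 and 486 CPM in BM + Spl, and Tff1 at 1024 and 877 CPM and at 314 and 311 CPM. In the tissue effector list, 2 of 19 were past 2-fold higher in BM only (Il1rl1 and Areg) and 6 of 20 in BM + Spl, where Maf, Id2, Ccr2 and Cxcr6 joined them. Among the suppression effectors, Fgl2 alone of 11 was past 2-fold higher in BM only, and 5 of 12 were in BM + Spl (Il10, Gzmb, Fgl2, Entpd1 and Lag3).

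Several levels were ordered by the number of Klrg1 UMIs in a Foxp3+ cell, which is a description since Klrg1 was used by the rule. Ccr7, the receptor that guides cells to the medulla and to lymph nodes, stood at 227 CPM with 0 Klrg1 UMIs, 262 CPM with 1, 141 CPM with 2 to 4 and 42.7 CPM with 5 or more in BM only. In BM + Spl the same classes stood at 331, 213, 166 and 97.0 CPM. Il7r, the interleukin 7 receptor, stood at 236, 297, 401 and 539 CPM in BM only and at 184, 337, 475 and 433 CPM in BM + Spl. S100a6, a calcium binding protein of effector cells, stood at 1199, 1476, 1799 and 2477 CPM in BM only and at 951, 1338, 1829 and 2021 CPM in BM + Spl.

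S100a6 thus stood higher in every next class in both libraries, Ccr7 was lowest in the class with the most Klrg1 UMIs in both, and Il7r went up through all classes in BM only but not in BM + Spl. Tcf7 stood at 118, 51.5, 22.6 and 9.86 CPM in BM only and had no such order in BM + Spl, with 136, 40.8, 89.9 and 27.4 CPM. The classes held 443, 70, 69 and 51 cells in BM only and 454, 58, 102 and 117 in BM + Spl. Their median depths ranged from 3756 to 4868 UMIs in BM only and from 4856 to 6984 in BM + Spl, and the classes with Klrg1 were the shallower ones.

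**Figure D4:**
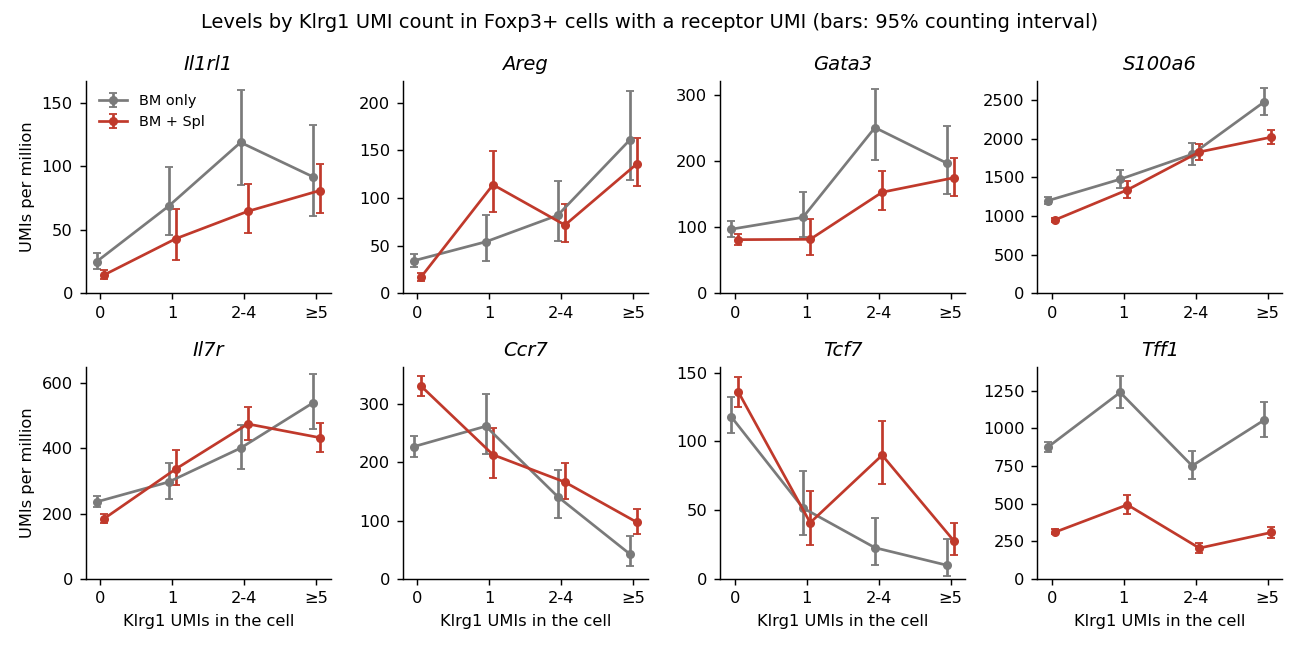
Level in CPM (y axis) of 8 genes in Foxp3+ cells with 0, 1, 2 to 4 and 5 or more Klrg1 UMIs (x axis), for BM only and BM + Spl, with 95% exact Poisson intervals. S100a6 was higher in each next class in both libraries, and Ccr7 was lowest in the class of 5 or more, at 42.7 CPM in BM only and 97.0 CPM in BM + Spl.

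Within members, detection of these genes overlapped only in part. Il1rl1 was detected in 69 of 190 members in BM only and 91 of 277 in BM + Spl. Areg was detected in 29.0% of members with Il1rl1 and 19.0% of those without in BM only, and in 30.8% and 24.2% in BM + Spl. For Gata3 these shares were 62.3% and 51.2% in BM only and 67.0% and 52.7% in BM + Spl. Tff1 was detected in 62.3% of members with Il1rl1 and 63.6% without in BM only, and in 46.2% and 39.8% in BM + Spl. By Ccr6, Tff1 was detected in 73.2% of members with it and 48.7% without in BM only, and in 59.5% and 34.8% in BM + Spl. Deeper cells show more genes of any kind, and the part of depth in these overlaps was not tested.

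Members of BM + Spl were then compared with members of BM only. Of 6702 genes compared, 148 were past 2-fold higher in BM + Spl (2.21%) and 68 lower (1.01%). Without mixed cells, 79 of 6222 were higher (1.27%) and 58 lower (0.932%). The median log2 ratio of all compared genes was -0.03 with all members and -0.02 without mixed cells. Each group is 1 library, so GVHD and any difference between the libraries cannot be told apart. In other T cells, 1.12% of the same 6702 genes were past 2-fold higher in BM + Spl and 1.19% lower.

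Lag3 and Upp1 were among the higher genes that did not depend on mixed cells. Lag3, an inhibitory receptor for MHC class II, stood at 48.8 CPM in members of BM only and 279 CPM in BM + Spl (log2 ratio 2.52, 2.11 to 2.95), and without mixed cells at 42.5 and 296 CPM (2.80, 2.36 to 3.28). It was detected in 12.6% and 38.3% of members, or in 7.65% and 22.1% after thinning, and in 3.52% and 15.5% of other T cells after thinning. Lag3 was also higher in other T cells, at 26.0 and 104 CPM (1.99), and in Klrg1-negative Foxp3+ cells, at 52.6 and 125 CPM.

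Upp1, uridine phosphorylase 1, stood at 1.88 CPM in members of BM only and 99.8 CPM in BM + Spl (5.73), and without mixed cells at 1.93 and 118 CPM (5.94). It was detected in 2 members of BM only and 54 of BM + Spl. In Klrg1-negative Foxp3+ cells Upp1 stood at 2.49 and 51.6 CPM, and in other T cells at 1.25 and 9.18 CPM. Def8 was also past 2-fold higher without mixed cells, at 4.82 and 75.9 CPM (3.97). It was also past 2-fold higher in Klrg1-negative Foxp3+ cells, at 30.2 and 96.1 CPM (1.67), and in other T cells, at 12.6 and 29.0 CPM (1.20). In BM + Spl it was detected in 22.2% of Klrg1-negative Foxp3+ cells and 11.2% of members. Rnaset2b stood at 18.3 and 101 CPM without mixed cells, against 22.4 and 31.2 CPM in all Klrg1-negative Foxp3+ cells and 57.4 and 72.5 CPM in all other T cells.

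Suppression effectors were higher in 2 of 12 genes, Lag3 and Il10, and lower in 0. Il10, the suppressive cytokine, stood at 22.5 CPM in members of BM only and 45.3 CPM in BM + Spl (1.01, 0.35 to 1.72), from 12 and 41 members. Other T cells held 1.09 and 1.67 CPM of Il10. Gzmb, granzyme B, stood at 148 and 195 CPM in members (0.39), and at 177 and 26.9 CPM in other T cells (-2.71). Fgl2, a secreted suppressor, stood at 224 and 164 CPM in members (-0.45) and at 123 and 28.3 CPM in other T cells (-2.12). Without mixed cells the member ratios were 1.14 for Il10, 0.52 for Gzmb and -0.35 for Fgl2. The median log2 ratio of the list was 0.19 in members.

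Ccl5 and Nkg7 were past 2-fold higher in members of BM + Spl and past 2-fold lower in other T cells of BM + Spl. Ccl5, a chemokine of effector T cells, stood at 457 CPM in members of BM only and 934 CPM in BM + Spl (1.03, 0.89 to 1.18), and at 644 and 251 CPM in other T cells (-1.36). Nkg7, a protein of cytotoxic granules, stood at 134 and 304 CPM in members (1.18, 0.92 to 1.45) and at 702 and 220 CPM in other T cells (-1.68). Without mixed cells the member ratios were 1.06 and 1.10. In Klrg1-negative Foxp3+ cells Nkg7 was past 2-fold higher too, at 127 and 338 CPM (1.41), and Ccl5 stood at 340 and 549 CPM (0.69), so neither direction is particular to members. Cxcr3, the receptor of interferon-induced chemokines, stood at 78.8 and 119 CPM in members (0.60, or 0.69 without mixed cells) and at 103 and 58.1 CPM in other T cells (-0.82).

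Of the 10 genes on the type 1 list, 2 of 8 compared (Ccl5 and Nkg7) were past 2-fold higher in members and 0 lower, with a median log2 ratio of 0.07. In other T cells 0 were higher and 5 of 8 lower, with a median of -1.39. Tbx21 (T-bet), which directs the type 1 programme, stood at 24.4 and 22.9 CPM in members and at 60.8 and 21.0 CPM in other T cells. The difference between members and other T cells in these ratios was not tested. Other T cells also differed in make-up, with iNKT V beta segments in 77.4% of assigned cells in BM only and 55.8% in BM + Spl. The part of this shift in their ratios was not tested.

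Plasmacytoid dendritic cell markers and 3 genes of MHC class II (H2-Ab1, H2-Aa and H2-Eb1) stood higher in members of BM + Spl, and the MHC class II genes also did so without mixed cells. All 5 genes of the plasmacytoid list (Siglech, Bst2, Irf8, Tcf4 and Ly6d) were past 2-fold higher, and their summed level, led by Bst2, was 420 CPM in members of BM only and 1413 CPM in BM + Spl. Without mixed cells this sum was 269 and 400 CPM, Siglech was at 0 in both libraries, and 0 of the 2 genes still compared were past 2-fold. Siglech and Ly6d were among the genes that defined mixed cells, so leaving those cells out lowers them by construction. H2-Ab1, a chain of MHC class II, stood at 8.44 and 175 CPM with all members (4.38) and at 0.965 and 44.8 CPM without mixed cells, where the value of BM only is 1 UMI. H2-Aa stood at 16.9 and 251 CPM, and at 2.89 and 53.8 CPM without mixed cells. H2-Eb1, another such chain, stood at 50.6 and 344 CPM, and at 45.4 and 241 CPM without mixed cells (2.41), where it was detected in 13.4% and 51.6% of members. The 3 genes were also past 2-fold higher in Klrg1-negative Foxp3+ cells, H2-Ab1 at 26.3 and 109 CPM (2.06), H2-Aa at 51.5 and 158 CPM (1.61) and H2-Eb1 at 43.0 and 185 CPM (2.11). Without mixed cells H2-Eb1 stood at 21.1 and 107 CPM in Klrg1-negative Foxp3+ cells (2.34) and at 10.3 and 24.7 CPM in other T cells (1.26). Klk1 and Iglc3, also among the 10 leading genes, stood at 0.938 and 220 CPM and at 2.81 and 88.6 CPM, from 18 and 19 members of BM + Spl. Without mixed cells Klk1 was at 0 in both libraries and Iglc3 at 0 and 0.597 CPM, which is 1 UMI, so neither was compared.

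The other marker lists were summed in the same way. The 5 B cell markers summed to 45.0 CPM in members of BM only and 45.3 CPM in BM + Spl, nearly all Cd79b, with Cd79a and Pax5 among those at 0 in BM only and Pax5 at 0 in BM + Spl. Without mixed cells Cd79b stood at 41.5 and 13.7 CPM, past 2-fold lower in BM + Spl (-1.59). Cd79b was among the genes that defined mixed cells, so leaving those cells out lowers it by construction, and no difference is read from this ratio. The 6 macrophage markers summed to 0 and 1.46 CPM, and the 5 erythroid markers to 0 in both. Of the 5 thymic epithelial markers only Epcam was found, at 29.1 and 34.1 CPM. The 7 markers of CD4+CD8+ thymocytes summed to 38.5 and 156 CPM, led by Cd8b1, with Rag1, Ptcra and Arpp21 at 0 in BM only and Rag1 and Rag2 at 0 in BM + Spl. Of these, Cd8a and Cd8b1 were past 2-fold higher in BM + Spl, and remained so without mixed cells, when the sum was 22.2 and 72.9 CPM. The part of such cells in the levels of Cd8a and Cd8b1 was not tested.

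Of 11 interferon response genes, 1 of 8 compared (Bst2) was past 2-fold higher, 0 were so without mixed cells, and the median log2 ratio was 0.50. Ifi27l2a stood at 3044 and 4244 CPM in members (0.48) and at 1175 and 2528 CPM in other T cells (1.11). Cell cycle genes were past 2-fold higher in 2 of 11, Top2a at 28.1 and 64.3 CPM (1.19) and Birc5 at 35.6 and 80.4 CPM (1.17). Without mixed cells the ratios were 1.22 and 1.20, and in other T cells 0.77 for Top2a and 0.73 for Birc5.

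Tff1, Ccr6 and Fos were among the lower genes. Tff1 stood at 1024 CPM in members of BM only and 314 CPM in BM + Spl (-1.71, -1.85 to -1.57), and at 877 and 311 CPM in Klrg1-negative Foxp3+ cells. It was detected in 63.2% and 41.9% of members, or 54.1% and 25.0% after thinning, and in 5.90% and 5.95% of other T cells after thinning. Ccr6 stood at 218 and 85.2 CPM in members (-1.35, -1.64 to -1.06) and at 215 and 98.4 CPM in Klrg1-negative Foxp3+ cells. Without mixed cells the ratios were -1.62 for Tff1 and -1.19 for Ccr6. In other T cells the same ratios were -0.69 for Tff1 and -0.50 for Ccr6.

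Among chemokine receptors and adhesion genes 3 of 19 were past 2-fold lower (Ccr4, Ccr6 and Gpr15) and 1 higher (Ccr9). Without mixed cells Gpr15 was below 2-fold (-0.91) and Ccr9 held too few UMIs to be compared. Ccr4, a receptor of skin-homing and regulatory T cells, stood at 76.0 and 27.8 CPM in members (-1.45, or -1.20 without mixed cells) and at 48.2 and 61.9 CPM in other T cells (0.36). It was also past 2-fold lower in Klrg1-negative Foxp3+ cells, at 74.6 and 33.0 CPM (-1.17). In the tissue effector list 0 of 20 were past 2-fold in either direction. Without mixed cells the ratios of Il1rl1, Areg and Itgae were -0.29, 0.41 and -0.22. With all members, Il1rl1 stood at 91.9 and 66.7 CPM (-0.46), Areg at 93.8 and 109 CPM (0.21), and Itgae at 575 and 442 CPM (-0.38), while Itgae in other T cells stood at 192 and 69.7 CPM (-1.46).

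Of the 10 dissociation genes, 4 (Fos, Hspa1a, Hspa1b and Atf3) were past 2-fold lower in members of BM + Spl. Hspa1b, an inducible heat shock protein, stood at 164 and 13.1 CPM in members (-3.64, or -3.38 without mixed cells) and at 252 and 25.6 CPM in other T cells (-3.30). Its near-identical copy Hspa1a stood at 84.4 and 7.30 CPM, and the split between them is uncertain. Fos, a subunit of AP-1, stood at 1164 and 550 CPM in members (-1.08, or -1.03 without mixed cells) and at 1025 and 388 CPM in other T cells (-1.40). In other T cells 6 of the 10 were past 2-fold lower. The sum of the list, led by Jund in members, was 8102 and 5709 CPM in members and 7234 and 3849 CPM in other T cells. In the T cell receptor response list, which holds the immediate early genes Egr1 and Nr4a1, 0 of 7 passed 2-fold in members. The part of tissue handling in these levels was not tested.

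Single cells carried some of the other leading differences. Ccl1 stood at 150 CPM in members of BM only and 13.6 CPM in BM + Spl, but 98.8% of the BM only UMIs came from 1 member. Lgals7 was at 0 in BM only and at 107 CPM in BM + Spl, at least 38.1-fold higher against 3 counts over the group, with 56.8% of its UMIs from 1 of 21 members. Il4 was likewise at 0 and 37.0 CPM, with 52.6% of its UMIs from 1 of 18 members. Ifitm1 came from 5 members and Igkv2-109 from 1. Cfap77, which was seen in 31 members of BM only and 24 of BM + Spl, stood at 142 and 14.6 CPM in members (-3.28) and at 265 and 15.2 CPM in other T cells (-4.12).

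**Figure D5:**
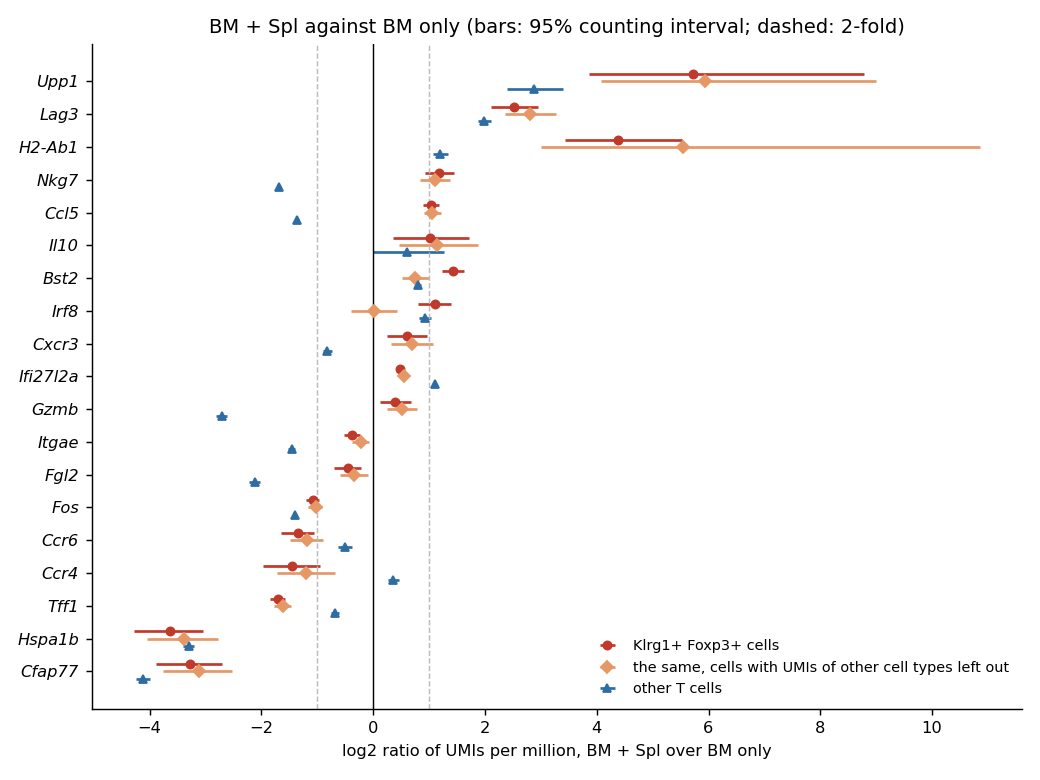
Log2 ratio of CPM in BM + Spl over BM only (x axis) for 19 genes (y axis), in members, members without mixed cells and other T cells, with 95% intervals of counting error. Ccl5, Nkg7, Gzmb and Cxcr3 lay above 0 in members and below 0 in other T cells, while Lag3 lay above 0 and Tff1, Ccr6 and Hspa1b lay below 0 in both.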

How the data were processed

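The deposited 10x matrices held UMI counts per gene and cell, which the authors made with Cell Ranger on mm10. Per the file headers, version 7.0.0 made the matrices after BMT and 3.0.2 that of C57BL/6, and the submitters' processing notes name Seurat 4.0.2 for later steps. Each BMT matrix had 32285 gene identifiers. The unit is the raw count, and no value was normalized before deposit. Members and gene lists were chosen with earlier results of these data known.

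Counts were summed over cells in Python 3.11.15 with numpy 2.4.6, pandas 2.3.3 and scipy 1.17.1, and figures were drawn with matplotlib 3.10.9. A level has an exact Poisson interval, a ratio of levels a conditional Clopper-Pearson interval, and a ratio of shares a Katz interval. Genes were compared with at least 50 UMIs, observed in members or expected from the reference cells, or, between libraries, in members of both libraries together. A gene was counted as past 2-fold without a test, since each condition was 1 library. The scripts were tested on simulated data.

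Rule genes and mitochondrial, ribosomal protein and T cell receptor genes were left out of the ranking in every comparison. Named genes were the 10 highest and 10 lowest of each comparison by the interval bound nearest 0, plus genes of the 23 lists. Genes outside this rule (Ighm, Cd74 and those of opposite direction in the closing section) were chosen after their values were seen. Alternatives changed the rule, the UMI minimum, the scaling, the depth and the cells kept. The gene set of C57BL/6 differed, so it entered only the share of members. Some genes of the lists are not reported here by name.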

Additional observations from a re-analysis of the deposited data

Results flagged for a closer look

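Some genes were past 2-fold in opposite directions in members and in other T cells when BM + Spl was set against BM only. No test of these differences could be run with 1 library per condition. The share of iNKT V beta segments in other T cells also differed between the libraries, and its part in these ratios was not tested. Ccl5 had log2 ratios of 1.03 in members and -1.36 in other T cells (difference, other T cells minus members, -2.39). Nkg7 had 1.18 and -1.68 (-2.86), and Ccl3, a chemokine of activated cells, had 1.73 and -1.06 (-2.79). Without mixed cells, which hold UMIs of other cell types, the member ratios were 1.06 for Ccl5, 1.10 for Nkg7 and 1.71 for Ccl3. In Klrg1-negative Foxp3+ cells the ratios were 0.69 for Ccl5 and 1.41 for Nkg7. For Fcer1g, the signalling chain of Fc receptors, the ratios were 1.31 and -1.43 (-2.74), with 52.8% of its BM only UMIs in members from 1 cell. Without mixed cells Fcer1g held too few UMIs in members to be compared. Rnf130 had 1.20 and -1.12 (-2.32), and its member ratio was below 2-fold without mixed cells, at 0.97.

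Tmem163 had ratios of 2.21 in members and -1.37 in other T cells (-3.58), with UMIs in 9 members of BM only and 51 of BM + Spl. Its member ratio was 2.24 without mixed cells. Scimp had 4.08 and -1.08 (-5.16), from 1 member of BM only and 17 of BM + Spl. Without mixed cells too few of its UMIs were left for a comparison. The opposite order was found for Trbv14, with -1.56 and 2.07 (3.63), from 7 and 4 members, and for Ccl1, with -3.46 and 3.80 (7.26), where 1 member gave 98.8% of the BM only UMIs.

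The ratio of members to other T cells also lay on opposite sides in the 2 libraries for 3 genes, again untested. It was 2.97 in BM only and -4.29 in BM + Spl for Ccl1 (BM + Spl minus BM only, -7.26). For Fcer1g it was -1.35 and 1.39 (2.74), and for Trbv4 2.02 and -1.34 (-3.36), from 14 and 7 members. Without mixed cells Ccl1 and Trbv4 were still past 2-fold on opposite sides and Fcer1g was not.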

How the results depend on the processing

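No paired analysis was possible because each condition was 1 library, and no replicate could be left out for the same reason. Of 90 recomputed shares and counts 58 stayed within their margin (1.5 times for a count) and 32 moved. Only the 8 recomputed ratios of the member share could be labelled reversed, and 0 of these were. Of 774 values of single genes 650 stayed, 122 moved and 2 reversed. The log2 ratio of the member share (0.65) was 1.07 with at least 2 UMIs of Foxp3 and of Klrg1 and 0.34 among Foxp3+ cells with a receptor. Genes past 2-fold against other T cells in BM only (331 higher, 144 lower) were 585 and 322 at a minimum of 20 UMIs, 87 and 27 at 200, 205 and 69 with at least 2 UMIs of both genes, and 151 and 61 after thinning. In BM + Spl (470 and 193) they were 748 and 384 at 20 UMIs, 175 and 46 at 200, and 209 and 73 after thinning. Against Klrg1-negative Foxp3+ cells in BM only (33 and 24) they were 100 and 117 at 20 UMIs and 20 and 9 with at least 2 UMIs of both genes, and the mean of CPM per cell gave 20 higher. In BM + Spl (114 and 78) they were 237 and 161 at 20 UMIs, with 73 higher by the mean per cell and 65 without the cells of most UMIs. Between the libraries (148 and 68) they were 366 and 234 at 20 UMIs, 37 and 7 at 200, and 43 and 17 after thinning. A minimum or thinning changes how many genes are compared, and for the mean per cell the cause was not tested. Leaving out mixed cells, an alternative chosen after seeing the data, gave 79 higher. Ccl1 reversed from -3.46 to 1.68 with at least 2 UMIs of both genes and to 1.96 without the member with most Ccl1 UMIs, also chosen after seeing the data. With 190 and 277 members, depth limits the genes of few UMIs most, and the minimum of 50 UMIs was a chosen one.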

Other observations

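Ighm, the heavy chain of IgM, was detected in 155 of 190 members in BM only (81.6%) and in 225 of 277 in BM + Spl (81.2%). It stood at 531 and 513 CPM in members and at 103 and 93.0 CPM in other T cells. Klrg1-negative Foxp3+ cells also held it, at 472 and 385 CPM in 78.6% and 81.3% of cells. Plasmacytoid-marked cells, a set with at least 5 Siglech UMIs and no Cd3e UMI, held Ighm at 388 and 463 CPM in 90.2% and 94.5% of cells. Of the B cell markers, Pax5 was at 0 in members of both libraries, while Cd79b was detected in 18.4% and 11.6% of members against 3.22% and 3.33% of other T cells. Cd74, the invariant chain of MHC class II, stood at 1027 CPM in members of BM only and 2351 CPM in BM + Spl, and without mixed cells at 841 and 1537 CPM. In Klrg1-negative Foxp3+ cells Cd74 stood at 732 and 1406 CPM, and in other T cells at 237 and 495 CPM, or 127 and 248 CPM without mixed cells.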
